A study of Mus musculus with 6 samples.

Results

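The cadherin and catenin genes of cell junctions and planar polarity were followed in mouse embryonic stem (ES) cells. The group holds 3 classical cadherin genes (Cdh1, Cdh2 and Cdh3), 3 Celsr cadherin genes (Celsr1, Celsr2 and Celsr3) and 4 catenin genes (Ctnnb1, Ctnna1, Ctnnd1 and Jup). They were chosen by symbol from the 23420 gene symbols of the count table, with earlier results of the comparison below in view. All 10 were present, and all 10 were among the 14340 genes that passed the filter on low counts. Because that comparison helped to choose them, their values are a description, and no p-value is given for them.

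One group of 3 libraries (replicates 1, 2 and 3) came from ES cells carrying a stable lentivirus for wild-type KBP, a protein that binds kinesin motors. The other group of 3 (replicates 4, 5 and 6) came from ES cells carrying a lentivirus for KBP(KK/RR), a mutant protein that the labels call stable. Both groups were grown under self-renewing conditions, and both carry a KBP virus, so the comparison asks how the mutant differs from added wild-type protein. The labels name neither the ES cell line nor the promoter of the virus, and cells without a KBP virus were not analysed here. Nor do the labels say whether the libraries of a group come from separate cultures. The p-values below therefore set the group difference against the spread between these libraries, which may be technical.

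Classical cadherins are single-pass adhesion receptors whose outer domains bind the same cadherin on the next cell. Their tails bind p120-catenin (Ctnnd1) near the membrane and beta-catenin (Ctnnb1) or plakoglobin (Jup) further out, and alpha-catenin (Ctnna1) joins that complex to actin. Ctnnb1 is also the nuclear effector of WNT signalling. The Celsr proteins, the vertebrate counterparts of fly Flamingo, are large cadherins with the membrane domain of an adhesion G protein-coupled receptor, and they help to set planar cell polarity. Naive ES cells grow as tight colonies held together mainly by the E-cadherin protein of Cdh1.

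Library totals ran from 24131743 to 32160411 counts, and the 10 genes had 325 to 30932 counts per library. Levels are given in CPM, counts per 1000000 on totals scaled by edgeR's TMM factors. The KBP gene (2510003E04Rik in the files) measured 48.3, 46.98 and 49.6 CPM in wild-type KBP and 56.3, 59.6 and 53.9 CPM in KBP(KK/RR), higher in all 3 (log2 fold change 0.23, SE 0.05, edgeR adjusted p = 0.0133). That call ended on leaving out replicate 2 (0.0908) or 5 (0.0735). Endogenous and any vector transcripts cannot be told apart in these counts. All 10 ES cell markers were tested and 0 were called by edgeR (3 at an unadjusted p under 0.05, 0 by DESeq2), with summed levels of 6764 to 6857 and 6647 to 6937 CPM in the groups. Markers of other cell types were also present. Their summed levels were 52.7 to 59.6 and 59.2 to 62.4 CPM for 12 fibroblast or feeder genes (Tagln rose, 1 of 9 tested). For 10 trophectoderm genes the sums were 60.1 to 68.9 and 60.2 to 68.3 CPM. Of the 9 tested trophectoderm genes edgeR called 0, with 0 at an unadjusted p under 0.05. DESeq2 called 0 of them, but it gave an adjusted p for only 2. The smallest p of the ES cell list was that of Esrrb (log2 fold change -0.09, SE 0.04, edgeR adjusted p = 0.182) and of the trophectoderm list that of Ascl2 (0.37, SE 0.20, adjusted p = 0.327). For 12 neural genes the sums were 233 to 239.6 and 228 to 238.8 CPM (Ncam1 fell, 1 of 8), and for 12 primitive endoderm genes 499 to 598 and 419.7 to 481 CPM (3 fell of 11, Col4a1, Col4a2 and Pdgfra). Each of these 5 calls was lost under some of the alternatives. The largest levels in the primitive endoderm sum were those of Lama1 (227 CPM in wild-type KBP), Lamb1 (146) and Col4a1 (111). Of its 11 tested genes 9 had a negative log2 fold change and 2 a positive one. Sox7 (log2 fold change -0.46, SE 0.15, edgeR adjusted p = 0.0949) was lower in all KBP(KK/RR) libraries and was not called. Lama1 was also lower in all of them (means 227 and 161 CPM, -0.49, SE 0.13, edgeR adjusted p = 0.169). It was not called by edgeR, but DESeq2 called it, along with Col4a1. Gata4, Gata6 and Sox17 were not called, with overlapping groups. Hnf4a was higher in all KBP(KK/RR) libraries (means 0.355 and 0.736 CPM) and was not called. The primitive endoderm sum was lower in all KBP(KK/RR) libraries, as the Celsr genes were, and its part in their difference was not tested. In bulk RNA, fewer cells of a type and less RNA per cell cannot be told apart.

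The 3 Celsr genes were lower in KBP(KK/RR) cells. Celsr3 fell by 28.6%, Celsr1 fell by 25.7% and Celsr2 fell by 16.2%, and Cdh3 had the largest difference of the other 7, at 13.3%. After a correction for transcript length and GC content, described below, the log2 fold changes were -0.28 for Celsr3, -0.22 for Celsr1 and -0.06 for Celsr2. Those of Cdh3 (0.18), Cdh1 (-0.10) and Cdh2 (0.10) were then larger in size than that of Celsr2. Over all genes tested, edgeR called 297 lower (2.07% of those tested) and 151 higher (1.05%), at an adjusted p under 0.05. Of the 10 genes, 3 were among those called lower, and 0 were among those called higher. The groups did not overlap for 7 of the 10, 4 of them lower and 3 higher, where 22.4% of all tested genes had groups that did not overlap. The median log2 fold change of the 10 was -0.06, against 0.00 over all genes tested (-0.0022). With upper-quartile scaling the calls over all genes were 235 higher and 205 lower, and 2 of the 10 were called lower. The 448 calls became 174, 277, 767, 281 and 122 when replicate 2, 3, 4, 5 or 6 in turn was left out. Of the 10 genes, 1 was called lower when replicate 3 or 5 was left out.

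**Figure D1:**
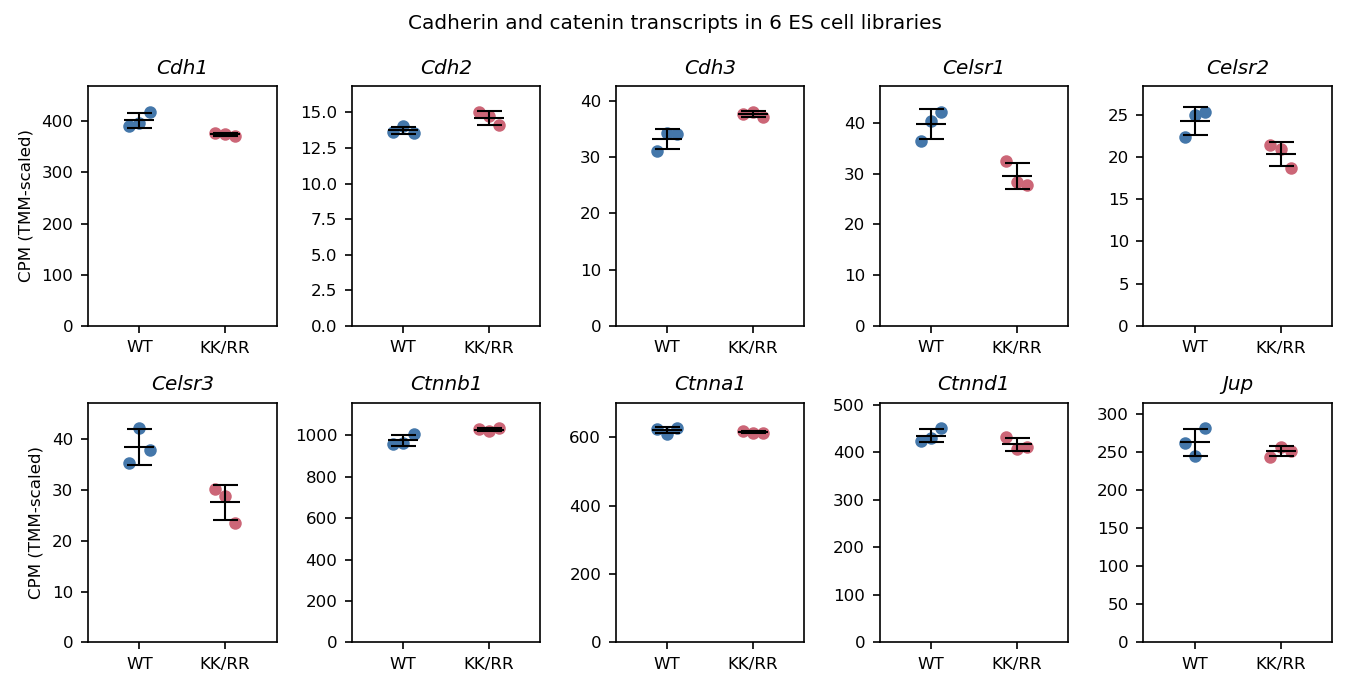
Level of each of the 10 genes in CPM (counts per 1000000, vertical axes from 0, scaled per gene) in wild-type KBP (WT) and KBP(KK/RR) libraries. Points are libraries in replicate order, and bars are the mean and SD of 3. The Celsr1, Celsr2 and Celsr3 points of KBP(KK/RR) all lie below those of wild-type KBP.

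Celsr3 is the Celsr member best known from axon guidance in the developing brain. It lies on chromosome 9 (108826023 to 108852969, plus strand, GRCm38.p6) and has a longest annotated transcript of 11571 bases. Its level was 35.3, 42.2 and 37.9 CPM in wild-type KBP replicates 1, 2 and 3. In KBP(KK/RR) replicates 4, 5 and 6 it was 30.3, 28.9 and 23.6 CPM. All 3 mutant libraries lay below all 3 wild-type ones, and replicate 6 was the lowest. The means were 38.5 ± 3.48 and 27.6 ± 3.51 CPM (SD, n = 3 each), a log2 fold change of -0.49 (SE 0.10). Leaving out replicate 3 or 5 removed the gene from those called, with log2 fold changes of -0.50 and -0.52. The log2 fold change was -0.38 without replicate 6 and -0.28 after the correction for length and GC, and the gene was called in both.

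The bases before the annotated start of Celsr3 are shown as the 5′ flank of the member with the largest difference, beside those of Ctnnb1, the member with the highest level per kilobase. Both come from RefSeq promoters on GRCm38.p6, whose table held 5 of the 10 genes, and both are on the plus strand. Capitals mark a GC box (GGGCGG, or CCGCCC on the other strand) or a CCAAT box (CCAAT or ATTGG), none of which overlap. The Celsr3 window is chr9:108825795-108826022 and the Ctnnb1 window is chr9:120933150-120933399.
Celsr3: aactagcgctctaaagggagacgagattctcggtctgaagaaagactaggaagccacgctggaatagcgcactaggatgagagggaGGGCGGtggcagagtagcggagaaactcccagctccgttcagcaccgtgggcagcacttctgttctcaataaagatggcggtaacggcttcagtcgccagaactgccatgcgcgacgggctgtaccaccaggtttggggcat
Ctnnb1: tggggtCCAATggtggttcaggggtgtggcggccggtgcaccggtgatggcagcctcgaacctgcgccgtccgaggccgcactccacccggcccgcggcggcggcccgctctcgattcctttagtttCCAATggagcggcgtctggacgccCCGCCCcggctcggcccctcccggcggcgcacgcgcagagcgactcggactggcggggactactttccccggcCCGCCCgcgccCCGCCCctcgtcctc
The Celsr3 window of 228 bases held 15 CpG dinucleotides, 1 GC box and 0 CCAAT boxes. In the same window of 27025 RefSeq promoters, 1 per gene, the median was 5 CpG, 29.6% held a GC box and 32.5% a CCAAT box. The Ctnnb1 window of 250 bases held 35 CpG, 3 GC boxes and 2 CCAAT boxes, where 32.9% of promoters held a GC box and 34.5% a CCAAT box. A TATA box (TATAAA or TTTATA), an E-box of the letters CAGGTG or CACCTG and a TCF site (CTTTGAT or ATCAAAG) had 0 matches in either window. In the 250-base windows of all promoters those motifs were found in 13%, 17.1% and 3.23%. Gm35025, a long non-coding gene of the other strand, spans the Celsr3 window and the first 98 bases of Celsr3. The count table does not list it, and its reads there could not be told apart from those of Celsr3 if counting ignored strand.

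Celsr1, which is needed for planar polarity of the skin and neural tube, lies on chromosome 15 (85898758 to 86034223, minus strand). It measured 36.5, 40.4 and 42.2 CPM in the wild-type KBP libraries. The KBP(KK/RR) libraries had 32.4, 28.3 and 27.7 CPM. The groups did not overlap, and replicates 5 and 6 were the lowest. The log2 fold change was -0.43 (SE 0.07), from 39.7 ± 2.93 to 29.5 ± 2.58 CPM. Of the 10 genes Celsr1 alone was called under all 15 alternatives, with log2 fold changes from -0.50 to -0.22.

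Celsr2 lies on chromosome 3 (108390848 to 108416069, minus strand) and acts with Celsr3 in neurons. It measured 22.4, 25.02 and 25.4 CPM in wild-type KBP and 21.4, 20.9 and 18.7 CPM in KBP(KK/RR). The nearest libraries of the groups, replicates 1 and 4, were less than 1 CPM apart. The log2 fold change was -0.25 (SE 0.07), the smallest of the 3. The gene was called under 7 of the 15 alternatives. It was not called when replicate 2, 3, 5 or 6 was left out, in DESeq2, with upper-quartile scaling or with a stricter filter on low counts. Nor was it called after the correction for length and GC content given below (log2 fold change -0.06).

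The 3 Celsr genes shared part of their order of libraries. In wild-type KBP each was lowest in replicate 1, and in KBP(KK/RR) each was highest in replicate 4 and lowest in replicate 6. The highest wild-type KBP library was replicate 3 for Celsr1 and Celsr2 and replicate 2 for Celsr3. Their summed level was 94.2, 107.7 and 105.5 CPM in wild-type KBP and 84.1, 78.1 and 70.005 CPM in KBP(KK/RR). The coefficient of variation within a group ran from 6.68% to 12.7% for these genes and from 0.467% to 6.86% for the other 7. Per kilobase of the longest transcript, Celsr1 held 39.4 ± 1.199% of the Celsr level in wild-type KBP and 38.7 ± 1.66% in KBP(KK/RR) (SD, n = 3), and Celsr3 held 35.9 ± 1.59% and 33.9 ± 1.62%, with overlapping libraries. Celsr2 held 24.7 ± 0.397% and 27.4 ± 0.748%, and its groups did not overlap. These shares depend on the length used: per median annotated transcript length, Celsr3 held 51.5%, Celsr2 37.5% and Celsr1 10.96% of the wild-type KBP level, and Celsr2 was again the share that was higher in KBP(KK/RR), at 41.2%.

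**Figure D2:**
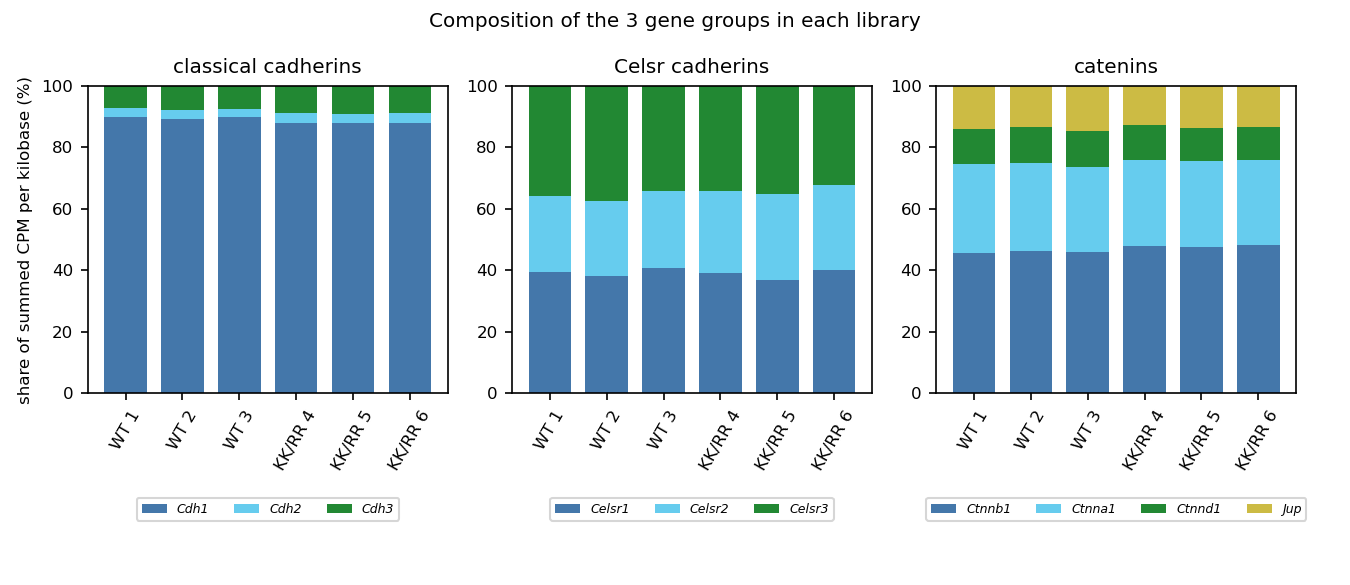
Share of each gene in the summed level per kilobase of its group (percent, vertical axis), with 1 bar per library, WT 1 to 3 and KBP(KK/RR) 4 to 6. Cdh1 holds 87.8% to 89.9% of the summed level of Cdh1, Cdh2 and Cdh3 in every library, and the Celsr shares are nearer to each other.

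The Celsr transcripts are long and rich in G and C, and transcript length and GC content moved with the difference between the groups. The longest Celsr transcripts have 10598 to 11571 bases with 57.8% to 58.8% GC. Those of the other 7 genes have 3205 to 6362 bases with 47.9% to 58.8% GC, the highest being that of Jup. Among tested genes with a longest transcript of at least 10000 bases and at least 55% GC, leaving out the Celsr genes, 7 of 34 were called lower (20.6%) and 1 higher, and the median log2 fold change was -0.27. A spline of log2 level on length and GC, fitted per library over the 14198 tested genes with a length and GC value, differed between the groups by -0.20 (log2) for Celsr1, -0.20 for Celsr2 and -0.20 for Celsr3. For the other 7 genes this trend ran from -0.05 to 0.02. After this correction the log2 fold change was -0.22 for Celsr1 and -0.28 for Celsr3, and both were still among the called genes. That for Celsr2 was -0.06, and it was not called. The part of length and GC content in these differences was not tested further, and the correction would also remove any difference that follows length for another reason.

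**Figure D3:**
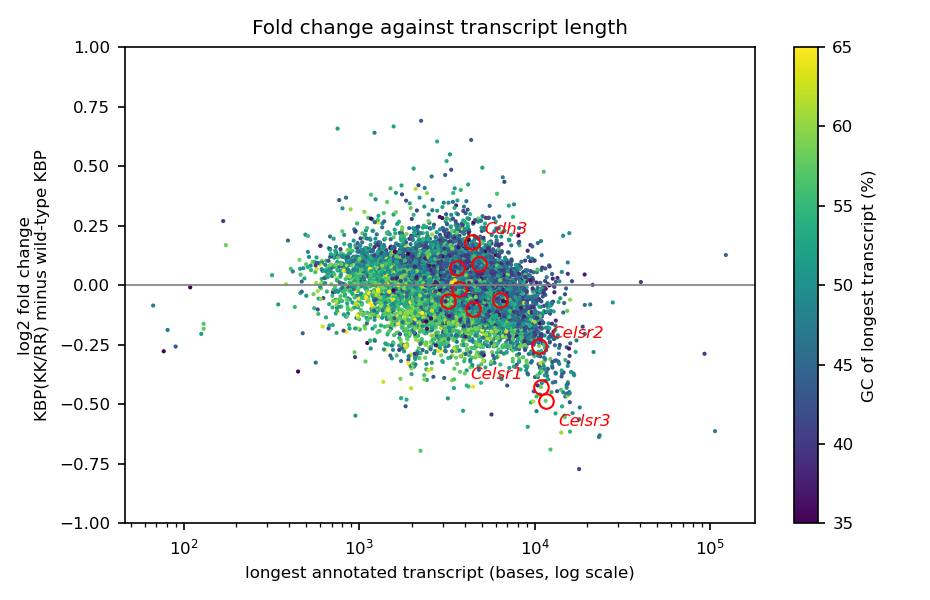
Log2 fold change (KBP(KK/RR) minus wild-type KBP, vertical axis) against the longest annotated transcript (bases, log scale) for 10709 tested genes whose mean log2 CPM was 2 or more, coloured by GC content. Red circles mark the 10 cadherin and catenin genes, and the Celsr genes lie among long transcripts with negative values.

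**Figure D4:**
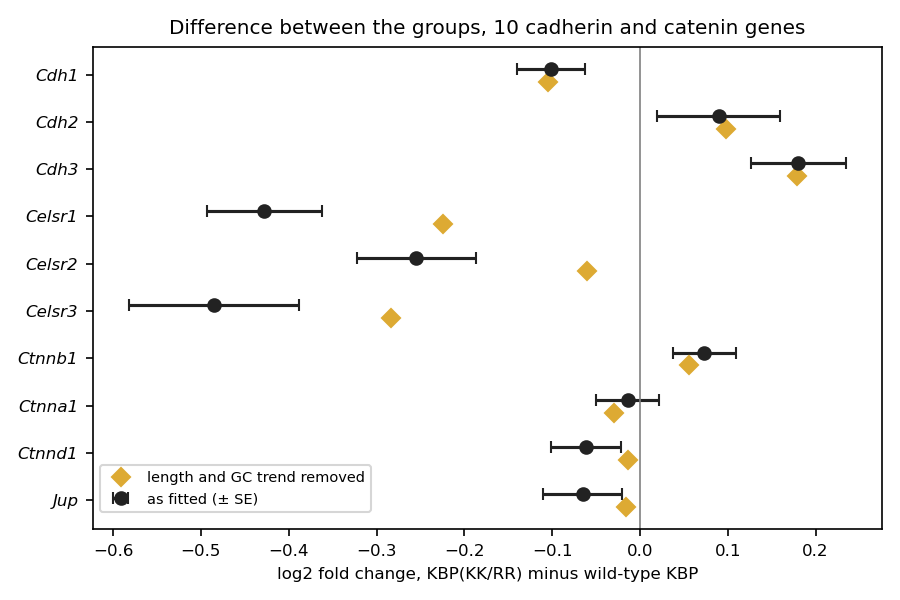
Log2 fold change of each of the 10 genes (horizontal axis, KBP(KK/RR) minus wild-type KBP). Black points with SE bars are the values as fitted, and yellow diamonds are those corrected for length and GC content. The diamonds of Celsr1, Celsr2 and Celsr3 lie nearer to 0 than the points, and those of Cdh1, Cdh2 and Cdh3 lie on or beside them.

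Cdh1, the gene for E-cadherin, lies on chromosome 8 (106603350 to 106670247, plus strand). It measured 391, 396 and 419 CPM in wild-type KBP and 377, 374 and 372 CPM in KBP(KK/RR). The mutant libraries were all lower and lay close together. The means were 402 ± 15.002 and 375 ± 2.44 CPM, a log2 fold change of -0.10 (SE 0.04), and the gene was not called under any of the settings tried. The SE is edgeR's, and wild-type KBP replicate 3 was the highest library. Without that library the log2 fold change was -0.07.

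Cdh3, the gene for P-cadherin, is the neighbour of Cdh1 on the same strand of chromosome 8 (106510852 to 106556911), 46438 bases before it. It measured 31.1, 34.3 and 34.1 CPM in wild-type KBP and 37.7, 38.05 and 37.1 CPM in KBP(KK/RR). All mutant libraries were higher, the direction opposite to that of Cdh1. The log2 fold change was 0.18 (SE 0.05), from 33.2 ± 1.76 to 37.6 ± 0.483 CPM, and Cdh3 was not among the called genes. It was among them with upper-quartile scaling (log2 fold change 0.20), with no filter on low counts (0.18) and after the correction for length and GC (0.18). Per length there were 12.4, 11.4 and 12.2 Cdh1 transcripts for each Cdh3 transcript in wild-type KBP libraries. The ratio was 9.91, 9.74 and 9.93 in KBP(KK/RR) libraries, lower in all 3. This ratio within a library does not depend on the scaling between libraries, but its size rests on the transcript length used. With the median annotated length, the wild-type KBP levels were 125 CPM per kilobase for Cdh1 and 7.56 for Cdh3.

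Cdh2, the gene for N-cadherin, whose rise at the expense of E-cadherin accompanies mesenchymal change, lies on chromosome 18 (16588877 to 16809246). It measured 13.6, 14.1 and 13.6 CPM in wild-type KBP and 15.1, 14.8 and 14.1 CPM in KBP(KK/RR). The groups did not overlap, but the highest wild-type library and the lowest mutant one were nearly equal (14.05 and 14.10 CPM). The log2 fold change was 0.09 (SE 0.07). Cdh1 made up most of the summed level per kilobase of Cdh1, Cdh2 and Cdh3, at 89.7 ± 0.359% in wild-type KBP and 87.9 ± 0.136% in KBP(KK/RR). Other cadherin genes were left out of this sum. Cdh3 held 7.48 ± 0.293% and 8.92 ± 0.0854%, and Cdh2 held 2.81 ± 0.128% and 3.14 ± 0.0823%. For each of the 3 shares the groups did not overlap. The shares are parts of the same sum, so a lower share of Cdh1 raises the others. They are not 3 separate results.

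Ctnnb1 (chromosome 9, 120933400 to 120960507) had the highest level per kilobase of the 10 genes. It measured 960, 964 and 1007 CPM in wild-type KBP and 1029, 1019 and 1035 CPM in KBP(KK/RR). All mutant libraries were higher, and the log2 fold change was 0.07 (SE 0.04), from 977 ± 25.8 to 1028 ± 7.87 CPM. Of the summed level per kilobase of the 4 catenin genes followed here, Ctnnb1 held 46.02 ± 0.364% and 47.9 ± 0.226%. For each Cdh1 transcript there were 3.01, 2.97 and 2.94 Ctnnb1 transcripts per length in wild-type KBP and 3.34, 3.33 and 3.399 in KBP(KK/RR). The size of this ratio rests on the longest transcript. With the median annotated length, the wild-type KBP levels were 1229 CPM per kilobase for Ctnnb1 and 125 for Cdh1.

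Jup, whose product replaces beta-catenin in junctions and also enters desmosomes, lies on chromosome 11 (100368856 to 100397839). It measured 261, 245 and 281 CPM in wild-type KBP and 244, 257 and 251 CPM in KBP(KK/RR). The groups overlapped (log2 fold change -0.07, SE 0.05), and the value was -0.11 without replicate 2, -0.01 without replicate 3 and -0.02 after the correction for length and GC. Ctnna1 (chromosome 18, 35118902 to 35254776) measured 625, 609.9 and 626 CPM against 617, 612 and 613 CPM, a log2 fold change of -0.01 (SE 0.04). Its sign was positive with upper-quartile scaling (0.0042). Lrrtm2 lies within its span on the opposite strand, with 0 to 4 counts per library. Ctnnd1 (chromosome 2, 84587096 to 84658977) measured 423, 429.6 and 450.2 CPM against 431, 407 and 410.3 CPM. Those groups overlapped too (log2 fold change -0.06, SE 0.04), and the value was -0.04 without replicate 3 and -0.01 after that correction. None of the 4 catenin genes was called under any of the 15 alternatives.

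Levels were compared between genes only per kilobase of the longest transcript. In wild-type KBP the order was Ctnnb1 (269.6 ± 7.11 CPM per kilobase, SD, n = 3), Ctnna1 (166 ± 2.41), Cdh1 (90.7 ± 3.39), Jup (81.9 ± 5.62), Ctnnd1 (68.3 ± 2.22), Cdh3 (7.56 ± 0.402), Celsr1 (3.65 ± 0.269), Celsr3 (3.33 ± 0.300), Cdh2 (2.84 ± 0.0556) and Celsr2 (2.29 ± 0.153). Of these neighbours, the libraries of Celsr1 and Celsr3 overlapped, and those of the other pairs did not. In KBP(KK/RR) the first 6 kept their order. Cdh2, at 3.02 ± 0.101 CPM per kilobase, then stood above Celsr1 (2.71 ± 0.237), Celsr3 (2.39 ± 0.303) and Celsr2 (1.92 ± 0.136). There Cdh2 overlapped with Celsr1, and Celsr1 with Celsr3. The order rests on the transcript length used. With the median length of the annotated transcripts, many of which are short fragments for these genes, the wild-type KBP level was 50.2 CPM per kilobase for Celsr3, 36.5 for Celsr2 and 10.7 for Celsr1, all above Cdh3 (7.56) and Cdh2 (3.63). Jup (353.7) then stood above Cdh1 (125).

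The genes next to the Celsr genes on their chromosomes, looked up after the values were seen, did not pass the test. Trmu and Gramd4 on either side of Celsr1 had log2 fold changes of -0.03 (SE 0.09) and -0.01 (SE 0.07), with edgeR adjusted p of 0.913 and 0.968. Psrc1 and Sars beside Celsr2 had 0.02 (SE 0.04) and 0.12 (SE 0.04), with adjusted p of 0.869 and 0.113. Nckipsd and Slc26a6 beside Celsr3 had -0.15 (SE 0.06) and -0.02 (SE 0.10), with adjusted p of 0.160 and 0.953. Slc26a6 begins 1073 bases after the end of Celsr3.

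Among 10783 tested genes whose mean log2 CPM was 2 or more, the pattern most like that of Celsr3 over the 6 libraries was that of Shank1, a postsynaptic scaffold gene. The measure was the root-mean-square difference of log2 CPM after each gene's mean was subtracted, and it was 0.0385 for Shank1. Other near patterns were those of Malat1, an abundant nuclear long non-coding RNA (0.0571), Nfat5, an osmotic stress factor (0.0599), and the polycystin gene Pkd1 (0.0649). These genes were picked for likeness to Celsr3 over the same libraries. A lower level in KBP(KK/RR) therefore follows from the choice, and no p-value is given for them. Their log2 fold changes were -0.49 for Shank1, -0.42 for Malat1, -0.45 for Nfat5 and -0.44 for Pkd1. Of these 4, Shank1 was among the called genes, and the other 3 were not. Their longest transcripts have 6983 to 14164 bases. The GC content of these is 61.4% for Shank1 and 56.8% for Pkd1, but 42.5% for Malat1 and 42.8% for Nfat5. Celsr1 stood at rank 21 (0.1003) and Celsr2 at rank 109 (0.1352).

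Other genes of adhesion and polarity were counted in 8 lists drawn up by function, with earlier results of these data known. Counts from these lists are therefore a description. Over their 121 tested genes, 4 rose and 5 fell, 7.44% against 3.12% of all genes tested, and the median log2 fold change was -0.04. Leaving out replicate 2, 3, 4 or 6 gave 2, 4, 16 or 3 calls in place of 9.

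**Figure D5:**
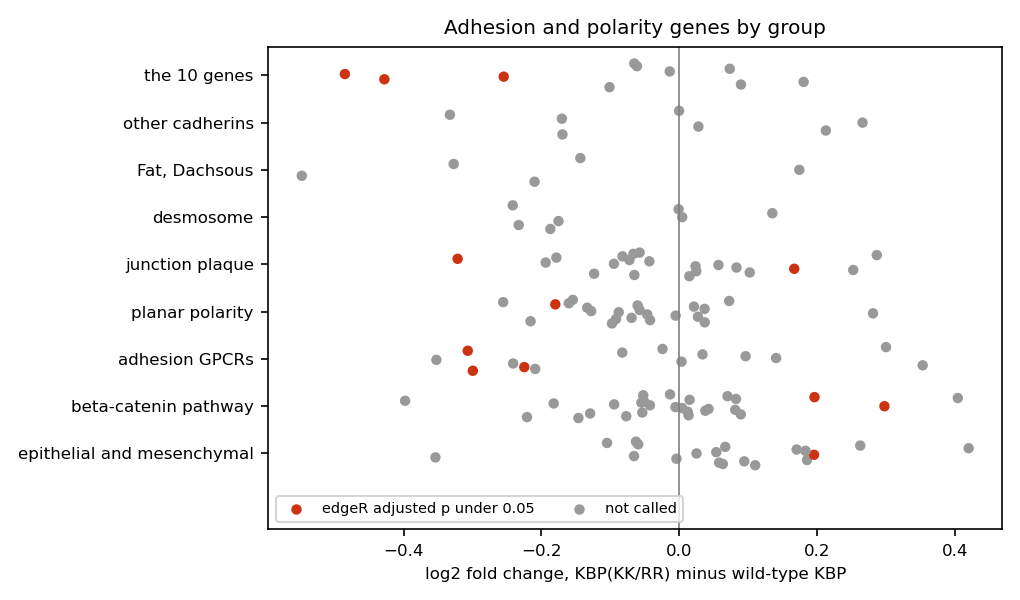
Log2 fold change (horizontal axis, KBP(KK/RR) minus wild-type KBP) of each tested gene in the 10-gene group and in 8 further lists, 1 point per gene. Red points were called by edgeR at an adjusted p under 0.05, and 3 of them are the Celsr genes and 3 are adhesion G protein-coupled receptors.

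The adhesion G protein-coupled receptors, the receptor class to which the Celsr proteins belong, had 3 of 14 other tested genes fall and 0 rise (median log2 fold change -0.05). Lphn1, a latrophilin receptor gene, fell from 274 ± 9.99 to 222 ± 7.74 CPM (SD, n = 3; log2 fold change -0.31, SE 0.04, edgeR adjusted p = 1.83e-04). It was called under all 15 alternatives, with a log2 fold change of -0.15 after the correction for length and GC. Bai1, an engulfment receptor gene, fell from 32.98 ± 2.797 to 26.9 ± 1.59 CPM (-0.30, SE 0.06, adjusted p = 0.0112). Its call was lost after that correction (edgeR adjusted p = 0.134, log2 fold change -0.16) and on leaving out replicate 2 (0.128). Cd97, expressed on leukocytes and epithelia, fell from 85.5 ± 4.46 to 73.2 ± 4.87 CPM (-0.22, SE 0.05, adjusted p = 0.0183). Leaving out replicate 2 (0.0511), 3 (0.0828) or 6 (0.139) ended that call.

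Of 22 planar polarity and noncanonical WNT genes, whose products work with the Celsr proteins at the membrane, 1 fell and 0 rose (median log2 fold change -0.06). Vangl1, a core polarity protein gene, fell from 70.7 ± 2.87 to 62.4 ± 0.472 CPM (-0.18, SE 0.05, edgeR adjusted p = 0.0364). The call was lost with upper-quartile scaling (0.0584), after the correction for length and GC (0.0602), and on leaving out replicate 2 (0.168), 3 (0.118), 5 (0.0776) or 6 (0.155). Of 20 further junction genes 1 rose and 1 fell. Pvrl1, the gene for nectin-1, fell from 77.2 ± 0.961 to 61.7 ± 2.22 CPM (-0.32, SE 0.05, adjusted p = 3.37e-04) and was called under all 15 alternatives. Ctnnal1, which encodes an alpha-catenin relative, rose from 109.8 ± 0.949 to 123 ± 2.51 CPM (0.17, SE 0.04, adjusted p = 0.0272). Leaving out replicate 1, 2 or 3 (0.0580 to 0.119) or 6 (0.131) ended its call.

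Of 27 genes of the beta-catenin pathway 2 rose and 0 fell (median -0.01), and both encode DNA-binding partners of beta-catenin. Of the other genes of that class, Tcf7l1 (log2 fold change 0.07, SE 0.05, edgeR adjusted p = 0.457) and Tcf7l2 (-0.05, SE 0.08, adjusted p = 0.774) were not called, and their groups overlapped. Lef1 rose from 15.6 ± 0.963 to 19.1 ± 0.950 CPM (log2 fold change 0.30, SE 0.07, edgeR adjusted p = 0.0188) and Tcf7 from 37.4 ± 0.224 to 42.8 ± 2.51 CPM (0.20, SE 0.05, adjusted p = 0.0457). The Lef1 call ended on leaving out replicate 1 (0.0704), 2 (0.0834) or 6 (0.139). The Tcf7 call was lost in DESeq2 (0.0806), in limma on the authors' normalized values (0.0541) and on leaving out any replicate except 4 (0.0794 to 0.275). Axin2 and Sp5, both targets of the pathway, were not called. Their log2 fold changes were 0.09 (SE 0.08, adjusted p = 0.570), with overlapping groups, and 0.40 (SE 0.12, adjusted p = 0.0611), with all mutant libraries higher. Of 19 genes of epithelial or mesenchymal state 1 rose, Grhl2, an epithelial transcription factor gene (31.5 ± 0.455 to 36.1 ± 0.0955 CPM, 0.20, SE 0.05, adjusted p = 0.0401). Its call was lost in DESeq2 (0.0810) and on leaving out any replicate except 4 (0.0700 to 0.181).

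In 3 lists edgeR called 0 genes. Of 7 other Cdh genes 1 had an unadjusted p under 0.05, Cdh4 (log2 fold change -0.33, SE 0.10, edgeR adjusted p = 0.0678). The 7 tested desmosome genes had 3 with such a p, of which the plakophilin gene Pkp2 had the smallest (0.14, SE 0.05, adjusted p = 0.122). Of 5 Fat and Dachsous genes 0 had such a p, and the smallest was that of Fjx1, the gene for their kinase (-0.14, SE 0.08, adjusted p = 0.342). DESeq2 called 0 genes in these 3 lists, with an adjusted p for 0, 4 and 2 of them.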

How the data were processed

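RNA of 6 ES cell libraries was depleted of ribosomal RNA and made into ScriptSeq v2 libraries, per the labels' protocols. The submitters' processing notes name TopHat, HTSeq, bcl2fastq and DESeq2 as tools and mm10 and GRCm38 as builds; annotation and strand setting were not given in the sources used here. Raw counts per gene symbol were deposited, with a normalized signal, which by its values the authors made by dividing each count by 1 factor per library. Of its values above 0, 100% gave whole reads within a tolerance of 0.01, 0 of which differed from the raw counts.

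Raw counts were tested over 14340 genes (filterByExpr) with edgeR 4.0.16 under R 4.3.3 (TMM, robust quasi-likelihood fit, glmQLFTest, group as the term) with Benjamini-Hochberg adjustment. The SE is the absolute log2 fold change over the square root of F. Alternatives were DESeq2 1.42.0, limma 3.58.1 (voom, and log2 of the normalized signal plus 1), other scalings and filters, splines on length and GC (5 degrees of freedom) and each library left out. The recovered reads, added later, gave 448 calls. They equal the raw counts, so 1 of the 15 alternatives counted for each gene repeats the main fit. In simulated counts over 14340 genes the fit found 28 of 67 genes changed 1.2-fold, 49 of 67 changed 1.5-fold and 62 of 66 changed 2-fold, with 23 false calls. The false calls were a larger share of all calls than the adjusted p threshold of 0.05 aims at, in this single simulated set. Calls with an adjusted p near 0.05 are therefore less certain. Lengths are GENCODE M21 transcripts (22998 of 23420 symbols) and coordinates RefSeq. Replicate pairs differed by more than counting noise (chi-square per degree of freedom 2.69 to 7.19). The precision of low counts is limited by depth.

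The members and lists were chosen with earlier results of these data known. Named were all members, each called gene of the other lists or else that with the smallest p, the 5 patterns nearest to Celsr3 (1 is not reported here), and the KBP gene. Neighbouring genes, the class of long GC-rich genes, Fat1, Fn1, Axin2, Sp5, Tcf7l1 and Tcf7l2 were chosen after values were seen.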

Additional observations from a re-analysis of the deposited data

How the results depend on the processing

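The signs of the log2 fold changes of 9 of the 10 genes held under all 15 alternatives, and the exception was Ctnna1, which is near 0. Ranges were -0.50 to -0.22 for Celsr1, -0.31 to -0.06 for Celsr2, -0.56 to -0.28 for Celsr3 and 0.14 to 0.21 for Cdh3. The value nearest 0 for each Celsr gene came with the length and GC correction. Over all genes 448 were called, against 966 with no filter on low counts, 717 with the length and GC correction (14198 genes tested, not 14340), and 122 to 767 with 1 library left out. Of the 10 genes, 3 were called lower, and 1 to 3 with 1 library left out. Cdh3 made the number called higher 1, not 0, with upper-quartile scaling, with no filter and with that correction. Of the other pathway genes 9 were called, against 16 with no filter and 2 to 16 with 1 library left out. Of 20 levels per kilobase, 18 moved by more than 1 SD when the median transcript length replaced the longest. No paired analysis was possible because the groups share no replicate numbers. With 3 libraries a group, 1.2-fold changes were often missed in simulated counts (28 of 67 found), so a gene that was not called is not shown to be equal.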

Other observations

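Fat1, a very large atypical cadherin gene outside the group described, was listed among the Fat and Dachsous genes and had their highest level. It measured 352, 533 and 556 CPM in wild-type KBP and 415, 304 and 266 CPM in KBP(KK/RR). The order of libraries within each group resembled that of the Celsr genes, with replicate 1 lowest in wild-type KBP and replicate 6 lowest in KBP(KK/RR), but the groups overlapped. Its log2 fold change of -0.55 was larger than that of Celsr3, and with an SE of 0.27 it did not pass the test (edgeR adjusted p = 0.391). Fn1, the fibronectin gene, measured 702, 889 and 921 CPM in wild-type KBP and 751, 663 and 551 CPM in KBP(KK/RR), with overlapping groups (log2 fold change -0.35, SE 0.17, edgeR adjusted p = 0.379).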
